A study of Homo sapiens with 16 samples.

Results

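FLT3 and the other class III receptor tyrosine kinases, with their ligands, were 8 of the 22445 genes in the expression table, and all 8 were found there. The set was chosen by gene symbol, matched through the Ensembl gene ID, and held the receptors FLT3, KIT, CSF1R, PDGFRA and PDGFRB and the ligands FLT3LG, KITLG and CSF1. RNA was sequenced from Molm14 cells, a KMT2A-rearranged human line of acute myeloid leukaemia, in 16 libraries, 4 per group. The iDOT1L group received 0.16 uM EPZ5676, an inhibitor of the histone H3 lysine 79 methyltransferase DOT1L. The iEZH2 group received 0.3 uM GSK126, an inhibitor of EZH2, which methylates histone H3 lysine 27. The Combo group received both compounds at those doses, and DMSO was the vehicle control. Every group was treated for 7 days, with medium and compound renewed on day 4. One cell line was used, so the 4 libraries of a group do not sample different leukaemias, and the labels do not say whether they were separate cultures. The p-values therefore measure only the spread between these libraries.

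Class III receptor kinases have an extracellular part of immunoglobulin-like domains, a single membrane span and a kinase domain split by an insert. Ligand binding pairs receptor molecules, which then phosphorylate each other and recruit adaptors that feed the RAS-MAPK, PI3K-AKT and STAT5 pathways. FLT3 and KIT act in early blood progenitors and CSF1R in monocytes and macrophages, while the PDGF receptors belong mainly to mesenchymal cells. Internal tandem duplications in FLT3 are among the common mutations of acute myeloid leukaemia, and Molm14 is known to carry one. The table held 1 value per gene, so transcripts of the mutant and the normal allele were not separated.

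FLT3 lies at chr13:28003274-28100592 on the minus strand, KIT at chr4:54657918-54740715 on the plus strand and CSF1R at chr5:150053291-150113372 on the minus strand (GRCh38, GENCODE 29). KITLG lies at chr12:88492793-88580851 on the minus strand. For the 4 members that passed a test in at least 1 comparison, the 250 bases before a RefSeq transcript start (GRCh38.p14) are shown so that the promoters can be set beside the changes. Windows of 7 of the 8 members were in the sequence table. Of the 2 RefSeq starts of CSF1R the downstream one is shown, which lies inside the GENCODE span and is the start that monocytes use. The windows are chr13:28100577-28100826 for FLT3, chr4:54657707-54657956 for KIT, chr5:150086555-150086804 for CSF1R and chr12:88580472-88580721 for KITLG, each on the strand of its gene. Capitals mark the words GAGGAAG, which PU.1 can bind, and TGTGGT, which RUNX proteins can bind.
FLT3: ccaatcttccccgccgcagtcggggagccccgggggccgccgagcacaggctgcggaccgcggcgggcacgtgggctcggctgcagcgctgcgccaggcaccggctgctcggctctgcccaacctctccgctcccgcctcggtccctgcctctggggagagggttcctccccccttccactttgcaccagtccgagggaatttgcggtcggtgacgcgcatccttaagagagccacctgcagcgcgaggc
KIT: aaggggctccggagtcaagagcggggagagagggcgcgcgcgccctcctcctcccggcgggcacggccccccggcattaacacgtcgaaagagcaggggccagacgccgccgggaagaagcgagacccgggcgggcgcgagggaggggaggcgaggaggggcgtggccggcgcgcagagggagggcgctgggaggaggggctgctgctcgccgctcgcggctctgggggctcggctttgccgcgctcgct
CSF1R: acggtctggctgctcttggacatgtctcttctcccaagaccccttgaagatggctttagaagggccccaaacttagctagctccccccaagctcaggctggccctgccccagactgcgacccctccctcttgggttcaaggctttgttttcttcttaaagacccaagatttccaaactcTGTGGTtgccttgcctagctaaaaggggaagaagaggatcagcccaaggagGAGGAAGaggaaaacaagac
KITLG: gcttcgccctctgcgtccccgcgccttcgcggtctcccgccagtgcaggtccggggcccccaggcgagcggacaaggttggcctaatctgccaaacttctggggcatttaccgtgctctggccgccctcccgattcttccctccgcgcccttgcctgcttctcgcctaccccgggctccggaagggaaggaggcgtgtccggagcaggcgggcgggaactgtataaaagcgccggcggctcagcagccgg
Along with those words, TGACAG (MEIS), TGATTNAT (HOX with PBX) and GCGGGGGCG (EGR) were searched on both strands of windows reaching 50 bases past the start. The CSF1R window shown held GAGGAAG at 20 bases and TGTGGT at 71 bases before the start, and these matches do not overlap. The window of the other CSF1R start held TGACAG at 72 bases before that start and no other of the 5 words. The windows of FLT3, KIT and KITLG held none of the 5 words. GAGGAAG occurred in 13.6% of all 35116 windows of the table, TGTGGT in 13.1%, TGACAG in 15.8%, TGATTNAT in 2.82% and GCGGGGGCG in 5.07%. The upstream bases of FLT3 were 72% G or C, those of KIT 76.4%, those of KITLG 69.2% and those of this CSF1R start 53.2%, against a median of 58% over all windows. A match describes letters and is not evidence of binding.

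Levels are normalised counts, which were recovered from the deposited log2 values and scaled between libraries. Differences are log2 fold changes of the normalised count plus 1, given ± the standard error, with a Benjamini-Hochberg adjusted p from limma over 22331 genes, and a gene was called at an adjusted p under 0.05. All 8 members were among the genes tested. Estimated totals were 20.6 to 27.2 M reads per library. All 8 myeloid markers were present, PTPRC (CD45) at 4581 to 13778 normalised counts and the myeloid factor SPI1 at 2145 to 3299. Of the 3 endothelial markers in the table, PECAM1, which myeloid cells also express, had 1302 to 3680 normalised counts, while VWF and CDH5 stayed under 10. DMSO libraries serve in all comparisons with DMSO, so these comparisons are not independent of each other.

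FLT3 fell with each inhibitor and fell furthest with both. Its 4 libraries of each group had 8122, 5149, 5553 and 5733 normalised counts with iDOT1L, 6169, 5399, 5441 and 4104 with iEZH2, 3988, 3289, 3339 and 3239.8 with Combo, and 10901.5, 8234, 9145 and 8689 with DMSO. Every treated library lay below every DMSO library, every Combo library lay below every library of a single inhibitor, and iDOT1L and iEZH2 overlapped. The means were 6139 ± 1344 with iDOT1L, 5278 ± 859 with iEZH2, 3464 ± 352 with Combo and 9243 ± 1167 with DMSO (SD, n = 4 each).

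Against DMSO, the log2 fold change of FLT3 was -0.61 ± 0.14 with iDOT1L (limma adjusted p = 0.0105), and FLT3 was the 1 of 8 members called there, where 6.25% of all genes were called. With iEZH2 it was -0.82 ± 0.14 (limma adjusted p = 0.00232), and 2 of 8 members were called, FLT3 lower and KITLG higher, where 3.35% of all genes were called. With Combo it was -1.41 ± 0.14 (limma adjusted p = 1.23e-06), a level 2.66-fold below DMSO, and 3 of 8 members were called, FLT3 lower and KIT and KITLG higher, where 16% of all genes were called. These 3 calls of FLT3 held without any 1 of the libraries compared.

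Set beside the single inhibitors, FLT3 was lower with Combo than with iDOT1L (-0.81 ± 0.14, limma adjusted p = 0.00425), the 1 member called where 2.58% of all genes were. Between Combo and iEZH2 the difference of FLT3 was -0.60 ± 0.14 (limma adjusted p = 0.0165), again the 1 member called, where 3.81% of all genes were. That call was lost without replicate 1 or 3 of iEZH2 or replicate 3 or 4 of Combo (limma adjusted p 0.0547 to 0.0695). Between iDOT1L and iEZH2 the difference in FLT3 was 0.21, with a 95% interval of -0.08 to 0.50 (limma adjusted p = 0.454). In order of level FLT3 thus ran Combo, iEZH2, iDOT1L and DMSO from low to high, and the pair that did not differ beyond its spread was iEZH2 and iDOT1L.

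**Figure D1:**
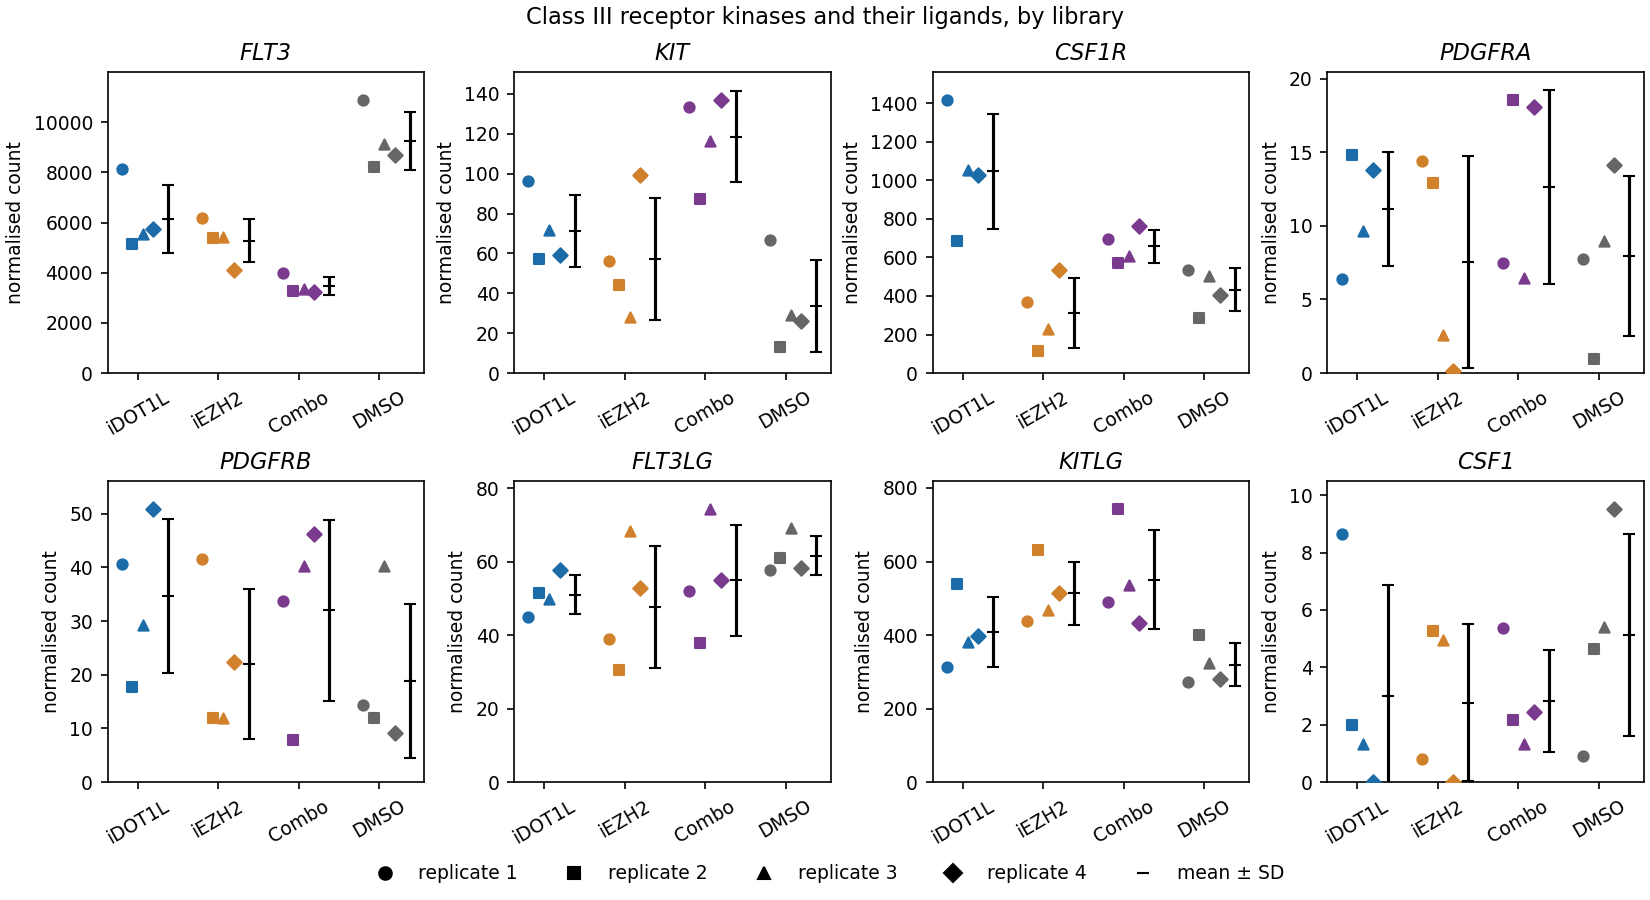
Normalised counts of the 8 members in each of the 16 libraries (linear axes from 0, a scale of its own for each gene), with markers for the replicate number and a black tick and bar for the group mean and SD. The 4 Combo libraries of FLT3 sit between 3239.8 and 3988, below all others, and the 4 Combo libraries of KIT sit between 87.1 and 137, above all DMSO libraries; bars that reach below 0 are clipped at the axis.

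KIT, the receptor of stem cell factor, was low in DMSO cells and rose with Combo. It had 96.3, 57.1, 72.0 and 59.3 normalised counts with iDOT1L, 56.4, 44.2, 27.9 and 99.5 with iEZH2, 133, 87.1, 116 and 137 with Combo, and 66.5, 12.9, 29.1 and 25.9 with DMSO. All Combo libraries lay above all DMSO libraries, while both single inhibitors overlapped DMSO, whose replicate 1 was highest of its group. Behind these values stood an estimated 11.8 reads in the lowest library and 139 in the highest. The level averaged 119 ± 22.8 with Combo and 33.6 ± 23.0 with DMSO (SD, n = 4 each), a log2 fold change of 2.00 ± 0.39 and 3.99-fold (limma adjusted p = 0.00158), and this call held without any 1 of the 8 libraries.

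With iDOT1L against DMSO the difference of KIT was 1.26 ± 0.39 and was not called (limma adjusted p = 0.0685). With the replicate number as a block, where 12.2% of all genes were called, it was called (limma adjusted p = 0.0147), as it was without DMSO replicate 1 (1.66, limma adjusted p = 0.00920). The difference was 0.83 ± 0.39 with iEZH2 against DMSO (limma adjusted p = 0.316). Combo and iDOT1L differed by 0.74 ± 0.39 in KIT (limma adjusted p = 0.362), and Combo and iEZH2 by 1.17 ± 0.39 (limma adjusted p = 0.121). Leaving out iEZH2 replicate 4, its highest library, gave 1.48 for Combo against iEZH2 (limma adjusted p = 0.0271). KIT also marks mast cells, and the 2 of 4 mast cell markers in the table, MS4A2 and HDC, summed to 13.3 to 21.4 normalised counts with iDOT1L, 4.94 to 16.2 with iEZH2, 5.03 to 15.2 with Combo and 10.1 to 18.7 with DMSO. Their part in the KIT result was not tested.

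CSF1R, the receptor of the macrophage growth factors CSF1 and IL34, separated the 2 inhibitors. It had 1419, 687.4, 1053 and 1028 normalised counts with iDOT1L, 367.8, 116.8, 227.2 and 535.2 with iEZH2, 696.0, 571.1, 608.5 and 761.1 with Combo, and 535.8, 287.0, 503.5 and 405.2 with DMSO. All iDOT1L libraries and all Combo libraries lay above all iEZH2 and all DMSO libraries, and iEZH2 overlapped DMSO. Mean levels were 1047 ± 299 with iDOT1L and 312 ± 181 with iEZH2 (SD, n = 4 each), and CSF1R was the 1 of 8 members called between these groups, where 6.94% of all genes were called. The difference was 1.91 ± 0.37, or 3.76-fold (limma adjusted p = 0.00457), and held without any 1 of the 8 libraries.

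Against DMSO, where CSF1R averaged 433 ± 112, the call depended on the fit. With iDOT1L the difference was 1.27 ± 0.37 (limma adjusted p = 0.0563), with the 4 libraries 1.06 to 1.40 above the DMSO library of the same number. With the replicate number as a block it was called (limma adjusted p = 0.00481), as it was without iDOT1L replicate 2 (limma adjusted p = 0.0475). It was also called with a pseudocount of 5 (limma adjusted p = 0.0479), among genes with a mean of at least 10 (0.0319), on the deposited log2 values (0.0234) and with only the groups compared (0.00578). With iEZH2 the difference was -0.64 ± 0.37 (limma adjusted p = 0.433) and with Combo 0.64 ± 0.37 (limma adjusted p = 0.281, or 0.0262 with only those groups). Combo and iEZH2 differed by 1.28 ± 0.37 in CSF1R (limma adjusted p = 0.0724), or 1.61 without iEZH2 replicate 4 (limma adjusted p = 0.00758). The summed level of the 8 myeloid markers was 30613 to 33750 normalised counts with iDOT1L, 14345 to 23316 with iEZH2, 31067 to 40254 with Combo and 16870 to 20760.3 with DMSO. LYZ and MPO, which encode lysozyme and myeloperoxidase, rose with iDOT1L and with Combo, while CD68 and ITGAM fell in both. With iDOT1L the calls of CD68 and ITGAM were lost in 6 of 8 fits without 1 library. With iEZH2 CD68 changed by -0.64 and ITGAM by -1.16 (limma adjusted p = 0.0970 and 0.0792). Both were called lower with the block (limma adjusted p = 0.000807 and 8.11e-05). LYZ changed by 0.74 and MPO by 0.42 with iEZH2, and neither was called with or without the block. Against DMSO the block also called CSF3R (limma adjusted p = 0.00763) and PTPRC (0.0155) higher with iDOT1L. It called CSF3R (limma adjusted p = 0.0319) and SPI1 (0.00907) lower with iEZH2. Between iDOT1L and iEZH2, where 6.94% of all genes were called, 4 of the 8 markers were higher with iDOT1L and none lower. Those 4 were CSF3R, LYZ, MPO and SPI1. The part of such shifts in the CSF1R result was not tested. In a bulk sample, more cells that express a gene and more RNA per cell cannot be told apart.

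**Figure D2:**
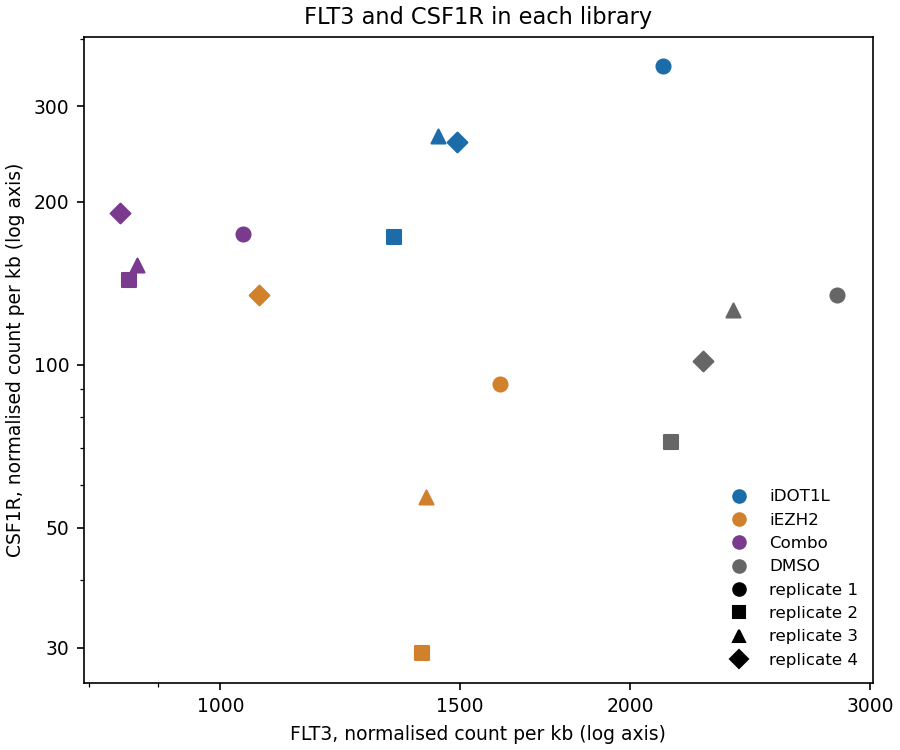
FLT3 against CSF1R in each library, both as normalised counts per kb of transcript on log axes, coloured by group with a marker for the replicate number. DMSO libraries lie at the right with the highest FLT3, iDOT1L libraries at the top with the highest CSF1R in replicates 1, 3 and 4, and Combo libraries at the left with the lowest FLT3.

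PDGFRA and PDGFRB, the receptors of platelet-derived growth factor, were near the bottom of the range. PDGFRB had 40.5, 17.7, 29.2 and 50.9 normalised counts with iDOT1L, 41.6, 12.002, 11.9 and 22.5 with iEZH2, 33.8, 7.90, 40.2 and 46.1 with Combo, and 14.3, 11.9, 40.2 and 9.23 with DMSO. Libraries of all groups overlapped, with replicate 3 alone high in DMSO and replicate 2 alone low in Combo. The differences from DMSO were 0.97 with iDOT1L (95% interval -0.17 to 2.10), 0.25 with iEZH2 (-0.88 to 1.39) and 0.71 with Combo (-0.42 to 1.85). PDGFRA ranged over 6.42 to 14.8 normalised counts with iDOT1L, 0.141 to 14.4 with iEZH2, 6.43 to 18.6 with Combo and 0.948 to 14.1 with DMSO. It too was called in no comparison, and intervals such as -0.73 to 2.33 with Combo allow large changes either way. Of the 31-base words in PDGFRA transcripts 15.7% also occur in other genes, mainly AC058822.1, which overlaps it on the same strand.

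Per kb of the longest basic protein-coding transcript, the scale on which genes can be compared, FLT3 led the 5 receptors in every group. FLT3 averaged 1598 normalised counts per kb with iDOT1L, 1374 with iEZH2, 902 with Combo and 2406 with DMSO. Among 16625 genes ranked per kb, its mean percentile was 95.2 with iDOT1L, 94.3 with iEZH2, 90.8 with Combo and 97.0 with DMSO. CSF1R came second, at 262, 78.2, 165 and 109 per kb in the same 4 groups, and KIT next, at 13.7, 10.99, 22.9 and 6.48.

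FLT3 thus made up 85.0 ± 1.8% of the summed receptor level per kb with iDOT1L, 93.3 ± 4.4% with iEZH2, 82.1 ± 2.4% with Combo and 95.3 ± 0.90% with DMSO (SD, n = 4 each). The share of CSF1R was 13.8 ± 1.8% with iDOT1L, 5.55 ± 3.9% with iEZH2, 15.1 ± 1.8% with Combo and 4.26 ± 0.74% with DMSO. That of KIT was 0.728 ± 0.065% with iDOT1L, 0.788 ± 0.53% with iEZH2, 2.08 ± 0.34% with Combo and 0.244 ± 0.13% with DMSO. Within a library FLT3 stood 5.47 to 7.78 times above CSF1R per kb with iDOT1L, 7.96 to 48.0 times with iEZH2, 4.42 to 5.98 times with Combo and 18.9 to 29.8 times with DMSO. FLT3 was the most abundant receptor transcript of the class in each library, also where it was lowest.

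KITLG, which encodes stem cell factor, rose with Combo and, less firmly, with iEZH2. It had 314.2, 539.0, 381.5 and 397.5 normalised counts with iDOT1L, 437.5, 632.4, 469.2 and 513.3 with iEZH2, 489.3, 743.9, 537.3 and 433.7 with Combo, and 273.0, 400.6, 324.0 and 280.6 with DMSO. Replicate 2 was the highest library of each group, and all iEZH2 and Combo libraries lay above all DMSO libraries. Its mean was 551 ± 135 with Combo and 320 ± 58.5 with DMSO (SD, n = 4 each), a log2 fold change of 0.77 ± 0.18 (limma adjusted p = 0.00553) that held without any 1 of the 8 libraries. With iEZH2, at a mean of 513 ± 85.4, the difference was 0.68 ± 0.18 (limma adjusted p = 0.0406). That call was lost in 6 of 8 fits without 1 library (limma adjusted p up to 0.136) and kept without iEZH2 replicate 1 or DMSO replicate 2, and with the replicate number as a block it held (limma adjusted p = 0.000148), where 9.76% of all genes were called.

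With iDOT1L the difference of KITLG from DMSO was 0.34 ± 0.18 (limma adjusted p = 0.341), called with the block (limma adjusted p = 0.0220). Between iDOT1L and iEZH2 it was -0.34 ± 0.18 (limma adjusted p = 0.316), called with the block (limma adjusted p = 0.0194), where 14.3% of all genes were called. With the block, 4 of 8 members were called with iDOT1L against DMSO, FLT3 lower and KIT, CSF1R and KITLG higher, where 12.2% of all genes were called. Stroma is a known source of stem cell factor, and the 6 stromal markers summed to 412 to 481 normalised counts with Combo, 275 to 555 with iEZH2 and 250.4 to 311 with DMSO. COL1A1 and DCN rose with Combo (1.68 and 2.57, limma adjusted p = 0.00562 and 1.80e-05), while the other 4 were not called, COL1A2 at -0.57, ACTA2 at -0.01, COL3A1 at 0.08 and THY1 at 0.26. Their part in the KITLG result was not tested.

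FLT3LG, the FLT3 ligand, had 44.8, 51.4, 49.9 and 57.68 normalised counts with iDOT1L, 39.0, 30.6, 68.5 and 52.9 with iEZH2, 52.1, 37.9, 74.4 and 55.0 with Combo, and 57.71, 60.9, 69.2 and 58.3 with DMSO. All iDOT1L libraries lay just below all DMSO libraries, and the other groups overlapped. The difference from DMSO was -0.27 with iDOT1L (95% interval -0.77 to 0.23), -0.42 with iEZH2 (-0.92 to 0.08) and -0.20 with Combo (-0.70 to 0.30), and none was called. Of the 31-base words of its transcripts 47.0% occur in other genes, mainly AC010619.2, so its level is uncertain. CSF1, the macrophage growth factor, ranged over 0 to 8.65 normalised counts with iDOT1L, 0 to 5.28 with iEZH2, 1.32 to 5.38 with Combo and 0.926 to 9.53 with DMSO. A count of 3 reads corresponds to 2.55 to 3.40 normalised counts, so CSF1 lay around that level, and it was called in no comparison. Its 95% intervals against DMSO, -2.34 to 0.62 with iDOT1L, -2.34 to 0.62 with iEZH2 and -2.03 to 0.94 with Combo, were wide and include 0.

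**Figure D3:**
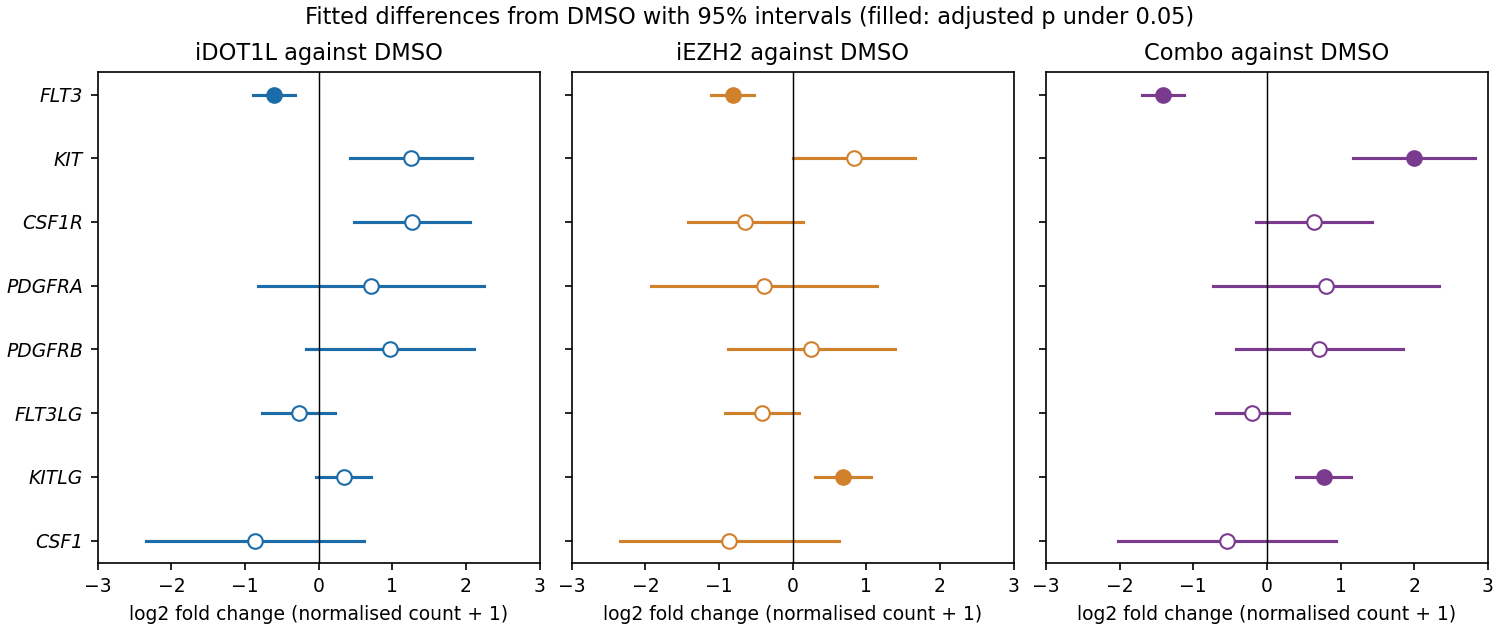
Log2 fold change of each member against DMSO for iDOT1L, iEZH2 and Combo (points) with the 95% interval of the fit (lines), filled where the adjusted p is under 0.05. FLT3 lies left of 0 in all 3 panels, at -0.61, -0.82 and -1.41, and the filled points right of 0 are KIT with Combo and KITLG with iEZH2 and Combo.

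Combo was also set against the sum of the single inhibitors, as an interaction term, which is the Combo effect minus both single effects on the log2 scale. For FLT3 the single effects sum to -1.42 and the Combo effect was -1.41, a difference of 0.01 with a 95% interval of -0.40 to 0.42. The single effects on KIT sum to 2.09 and Combo gave 2.00, an interaction of -0.09 (-1.26 to 1.08). CSF1R, whose single effects had opposite signs, summed to 0.62 against 0.64 with Combo, an interaction of 0.01 (-1.09 to 1.123). KITLG summed to 1.03 against 0.77 with Combo, an interaction of -0.25 (-0.79 to 0.28). No member was called for the interaction, and neither was any of the 22331 genes (0% by limma). By limma 848 genes, or 3.80%, had an unadjusted p under 0.05. The intervals given, and not the missing call, thus say how far each member may depart from a sum.

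**Figure D4:**
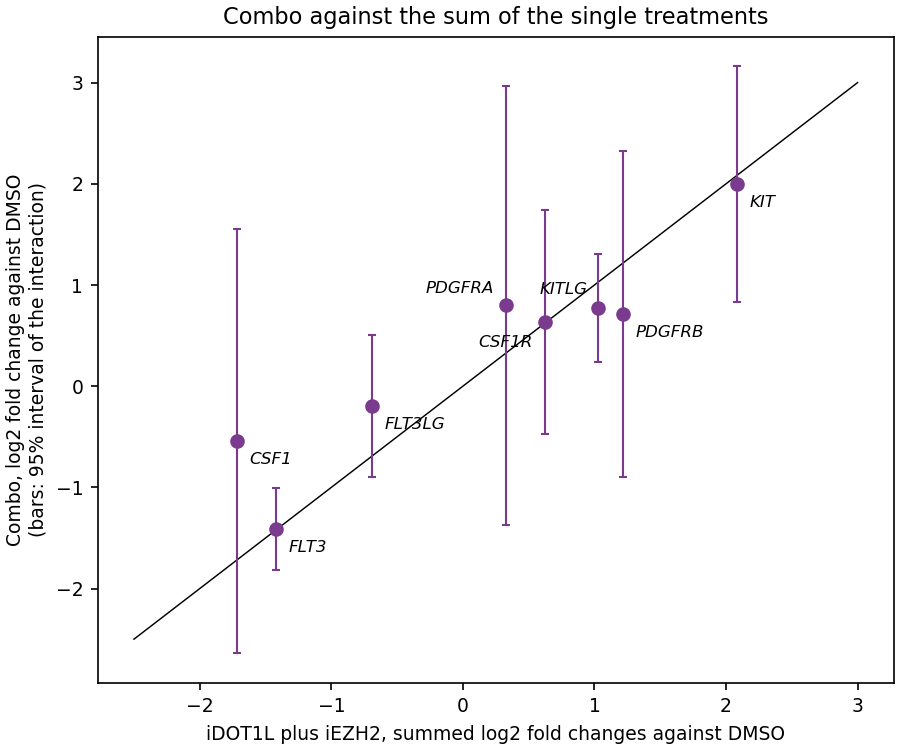
Log2 fold change with Combo against DMSO (vertical axis) plotted on the sum of the iDOT1L and iEZH2 fold changes (horizontal axis) for the 8 members, with bars for the 95% interval of the interaction and a line where both are equal. FLT3, at -1.42 and -1.41, lies on the line with the shortest bar, and every bar crosses the line.

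The genes around the receptors were described with 5 lists of 97 genes, by the count called in each direction. With iDOT1L against DMSO 3.08% of all genes were called higher and 3.17% lower, with iEZH2 1.3% and 2.05%, and with Combo 7.22% and 8.8%. With the replicate number as a block, 12.2% were called in either direction with iDOT1L and 9.76% with iEZH2. Median log2 fold changes over all genes were 0.01 with iDOT1L, 0.02 with iEZH2 and 0.03 with Combo.

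Among 31 adaptors and effectors none rose and 12 fell with Combo, with a median of -0.31. They include AKT1, the kinase downstream of PI3K (-0.45 ± 0.08, limma adjusted p = 0.000914), PLCG2, a phospholipase that makes second messengers (-0.40 ± 0.09), PIK3R2, a regulatory subunit of PI3K (-0.35 ± 0.08), and GAB2, a docking protein (-0.52 ± 0.12). Without 1 library the count ranged over 6 to 15, and it was 7 without Combo replicate 3 and 6 without DMSO replicate 1. With iDOT1L 2 fell, AKT1 (-0.29) and PIK3R2 (-0.28), and these calls were lost in 6 and 7 of 8 fits without 1 library (limma adjusted p up to 0.129 and 0.143). With iEZH2 2 fell, GRB2, the adaptor that links receptors to RAS activation, and PIK3CD, a catalytic subunit of PI3K, calls lost in 3 and 5 of 8 fits without 1 library.

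Among 24 genes listed as negative regulators, 14 fell and none rose with Combo, with a median of -0.40. The list also holds the kinases FES and LYN, so its counts should not be read as inhibitors alone. FES, a cytoplasmic tyrosine kinase of myeloid cells, averaged 1597 ± 119 normalised counts with Combo and 4455 ± 336 with DMSO (SD, n = 4 each), a log2 fold change of -1.48 ± 0.10 (limma adjusted p = 4.76e-08). SOCS2, an inhibitor of cytokine signalling, averaged 2103 ± 266 with Combo and 5025 ± 158 with DMSO (-1.26 ± 0.12, limma adjusted p = 1.23e-06). INPP5D, the lipid phosphatase SHIP1, changed by -1.18 ± 0.12 and SH2B3, the adaptor LNK, by -0.90 ± 0.12. With iDOT1L 4 fell, SOCS2 (-1.14), FES (-0.67), INPP5D (-0.64) and SH2B3 (-0.53), and 2 rose, DOK1 (0.34) and SLA2 (1.17), an adaptor that dampens antigen receptor signalling. The call of DOK1 was lost in 5 of 8 fits without 1 library (limma adjusted p up to 0.117). With iEZH2 6 fell and none rose. With the block the counts were 8 lower and 4 higher with iDOT1L, where 12.2% of all genes were called, and 10 lower with iEZH2, where 9.76% were.

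Of 16 genes known to respond to STAT5 or to mutant FLT3, 5 fell and none rose with Combo, with a median of -0.16. MCL1, an anti-apoptotic protein, changed by -0.61 ± 0.08 (limma adjusted p = 1.59e-05) and CCND2, a cyclin of the G1 phase, by -0.46 ± 0.09. CISH (-0.64 ± 0.10) and SOCS2, both feedback inhibitors, are on this list and on that of negative regulators. With iDOT1L 4 fell, among them ID1, an inhibitor of basic helix-loop-helix factors (-1.63 ± 0.27, limma adjusted p = 0.000698). With iEZH2 3 fell, CISH, MCL1 and the kinase gene PIM2, of which MCL1 was lost in 5 of 8 fits without 1 library. With the block 7 fell and 1 rose with iDOT1L. MYC, PIM1 and BCL2L1 are also on the list and were not called in any of the 3 comparisons without the block.

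Of 19 factors known to act at FLT3, KIT or CSF1R, 5 fell and 1 rose with Combo. MEIS1, a HOX cofactor, averaged 722 ± 58.3 normalised counts with Combo and 1582 ± 128 with DMSO (SD, n = 4 each), a log2 fold change of -1.13 ± 0.13 (limma adjusted p = 8.10e-06). PBX3, another HOX cofactor, changed by -1.004 ± 0.14, IRF8, a factor of monocyte and dendritic cell development, by -0.63 ± 0.08, and EGR1, an immediate early factor, by -3.42 ± 0.41. With iDOT1L PBX3 (-1.24), MEIS1 (-0.86) and EGR1 (-3.16) fell and KLF4, a factor of monocyte development, rose (0.78). With the block HOXA9 was also called lower with iDOT1L (-0.30, limma adjusted p = 0.00623). With iEZH2 EGR1, IRF8 and LMO2 fell, and the call of EGR1 was lost without iEZH2 replicate 4 or DMSO replicate 1 or 3. With the block 6 fell with iEZH2, adding FLI1 (limma adjusted p = 0.00671), SPI1 (0.00907) and RUNX1 (0.0145). Between iDOT1L and iEZH2, where 6.94% of all genes were called, 5 of 19 were higher with iDOT1L and 3 lower. FLI1, KLF4, LMO2, RUNX1 and SPI1 were higher, and HOXA9, MEIS1 and PBX3 lower. These lists were written with earlier results on PBX3, MEIS1 and FLT3 in these libraries known.

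Among the other ligands of the class and the class V kinases, 6 genes were in the table. PDGFC, a PDGF ligand, averaged 548 ± 103 normalised counts with Combo and 325 ± 22.02 with DMSO (SD, n = 4 each), a log2 fold change of 0.74 ± 0.12 (limma adjusted p = 0.000333). Its rise with iDOT1L (0.44, limma adjusted p = 0.0380) was lost in 7 of 8 fits without 1 library, and that with iEZH2 (0.46, limma adjusted p = 0.0447) in 8 of 8. PDGFA, another PDGF ligand, averaged 450.5 ± 62.9 with Combo and 671 ± 54.6 with DMSO (-0.58 ± 0.14, limma adjusted p = 0.00707), and it fell with iDOT1L too (-0.78 ± 0.14). PDGFB, at 0 to 0.554 normalised counts with Combo and 3.56 to 8.59 with DMSO, was called lower with Combo (limma adjusted p = 0.00789). PDGFD, at 2.30 to 7.28 with Combo and 0 to 0.832 with DMSO, was called higher (limma adjusted p = 0.0215, lost without Combo replicate 3 or 4 or DMSO replicate 1). Both PDGFB and PDGFD lie around the level of 3 reads, so no fold is given.

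**Figure D5:**
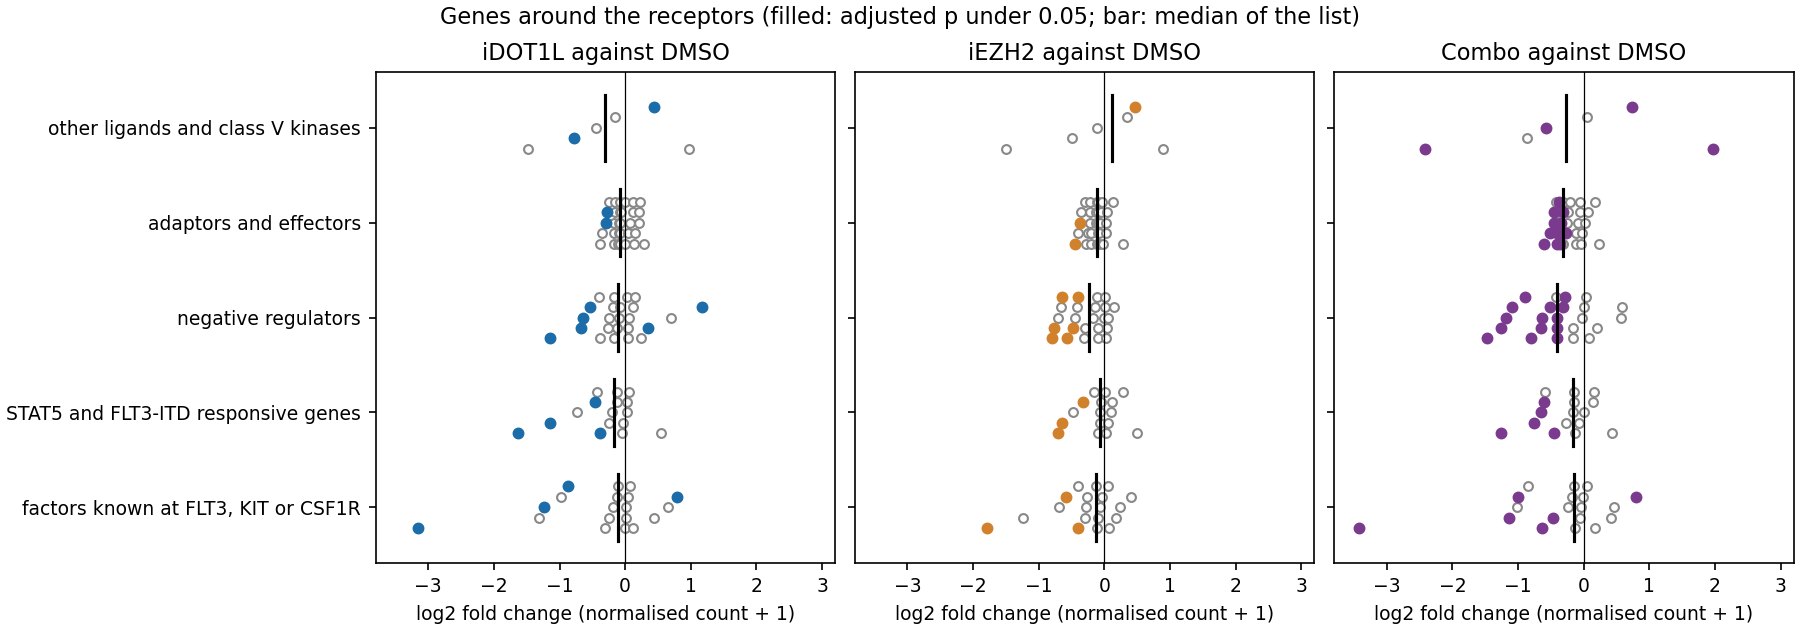
Log2 fold change against DMSO of each tested gene in 5 lists (rows) for iDOT1L, iEZH2 and Combo (panels), filled where the adjusted p is under 0.05, with a black bar at the median of each list. With Combo the filled points of the adaptors and of the negative regulators all lie left of 0, 12 and 14 in number.

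Among protein-coding genes within 500 kb of the receptors, 1 of 6 tested for FLT3 and 1 of 14 for CSF1R were called with Combo, where 16% of all genes were. Of the 6 tested neighbours of FLT3, PAN3, a subunit of a poly(A) nuclease 37.9 kb away, fell with iDOT1L (-0.33 ± 0.09, limma adjusted p = 0.0251), iEZH2 (-0.42 ± 0.09, limma adjusted p = 0.00897) and Combo (-0.74 ± 0.09, limma adjusted p = 7.12e-06). Its call with iDOT1L was lost in 5 of 8 fits without 1 library (limma adjusted p up to 0.0825). The other 5, among them the class V kinase gene FLT1, were not called in the fit of all libraries without the block. FLT1 was called lower with Combo with the block (-0.86, limma adjusted p = 0.0113), where 24.6% of all genes were called. It was also called lower with Combo without DMSO replicate 2 (limma adjusted p = 0.0263). Of the 14 tested neighbours of CSF1R, CD74, the invariant chain of antigen presentation, rose with iDOT1L (0.54 ± 0.13, limma adjusted p = 0.0130), and NDST1, a heparan sulfate enzyme, fell with Combo (-0.88 ± 0.17, limma adjusted p = 0.00114). With the block CD74 was called lower with iEZH2 (limma adjusted p = 0.00319) and NDST1 lower with iDOT1L (limma adjusted p = 0.00751). On the minus strand, 464 bases lie between the end of PDGFRB and the start of the GENCODE span of CSF1R. The CSF1R start whose window is shown above lies further downstream, inside that span. PDGFRB, at a far lower level, was not called where CSF1R was. PDGFRA, 359.67 kb from KIT, is its 1 tested neighbour and was not called.

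Over the 16 libraries, the 5 protein-coding genes whose log2 values ran closest to FLT3 among 11192 compared were GPI (Pearson r = 0.979), ACTG1 (0.977), DHCR7 (0.973), SCD (0.971) and FURIN (0.970). GPI is a glycolytic enzyme, ACTG1 cytoplasmic actin, DHCR7 the last enzyme of cholesterol synthesis, SCD the stearoyl-CoA desaturase and FURIN a protease of the secretory pathway. The deviations from the group means correlated too, with r = 0.918 for GPI, 0.897 for ACTG1, 0.791 for DHCR7, 0.782 for SCD and 0.802 for FURIN. SCD, for example, averaged 30869 ± 7380 normalised counts with iDOT1L, 27246 ± 6902 with iEZH2, 15866 ± 1786 with Combo and 55564 ± 6936 with DMSO (SD, n = 4 each), the same order of groups as FLT3.

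Closest to KIT were LTA4H (r = 0.914), PDE4B (0.898), FHL1 (0.893), VPS35L (0.885) and CTSO (0.885). LTA4H makes leukotriene B4 and PDE4B breaks down cyclic AMP. Closest to CSF1R were IRAK2 (0.973), ITGB7 (0.961), ICAM3 (0.961), CHMP1B (0.958) and DPYSL3 (0.954), of which IRAK2 acts in Toll-like receptor signalling and ITGB7 and ICAM3 are leukocyte adhesion proteins. Closest to PDGFRB were RNF10 (0.786), SPACA6 (0.755), C8orf44 (0.750), LINGO3 (0.745) and F3 (0.742), weaker matches for a gene with few reads. All these points share the treatments and the scaling of the libraries, so the coefficients describe likeness and nothing more.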

How the data were processed

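RNA of 16 Molm14 libraries, 4 per group by their titles, was analysed from 1 table. Per the submitters' processing notes, the authors used kallisto, DESeq2 and hg38. The annotation was not given in the sources used here, nor were versions. One protocol entry speaks of RNA taken after a sort, which conflicts with the stated treatment, and the treatment entry was followed. The authors deposited log2 values with the form of the DESeq2 variance-stabilising transformation, whose lowest value, 6.28106, stands for a count of 0. They were inverted to normalised counts. Low values (under 12 reads) then lay within 0.1 read of a whole number for 62.7% to 65.6%, so read totals are estimates. No 2 libraries were copies, and correlations between libraries were 0.982 to 0.996. No column held other samples.

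Of 22445 IDs, 20784 matched GENCODE 29. Genes above 1 normalised count in 4 or more libraries entered the test by limma-trend 3.58.1 (R 4.3.3; robust empirical Bayes; pseudocount 1; 4 group means; 12 residual degrees of freedom). The pseudocount understates fold changes of low genes. The edgeR test planned for raw counts was not used, because the table held log2 values. The fit was tested on simulated data. Samples of the same replicate number, which comes from the titles, deviated together over 12270 genes with r of 0.109 to 0.500 between iDOT1L and DMSO, 0.198 to 0.581 between iEZH2 and DMSO and 0.113 to 0.639 between both inhibitors, so the blocked value is given where it changes a call there. For pairs with Combo r was 0.0515 to 0.441 with DMSO, 0.0362 to 0.394 with iDOT1L and 0.0528 to 0.481 with iEZH2. Alternatives were pseudocounts of 0.5 and 5, no filter, a mean of at least 10, the deposited log2 values, median-ratio rescaling, fits of only the groups compared, the block and leaving out each library.

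Members, lists and tests were chosen with earlier results of these data known. Genes named were the members, up to 4 called genes of lowest adjusted p per list with iDOT1L and with Combo (a few others are named after their values were seen), the 5 closest genes by Pearson r for receptors averaging at least 20, among genes averaging at least 50, and neighbours within 500 kb.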

Additional observations from a re-analysis of the deposited data

Results flagged for a closer look

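Of 32 groups of 4 libraries, 8 members in 4 groups, 2 held a library far from the others, where chance flags about 1 in 20. FLT3 with Combo had 3988.41 normalised counts in replicate 1, against 3239.8 to 3339 in the other 3, a gap of 0.868 of the range, past the critical value of Dixon's test. This library was still below every iDOT1L, iEZH2 and DMSO library. PDGFRB with DMSO had 40.1751 normalised counts in replicate 3, against 9.23 to 14.3 in the other 3, a gap of 0.836 of the range.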

How the results depend on the processing

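In the fit with the replicate block, calls numbered 2729 genes and 4 members for iDOT1L against DMSO, 2180 genes for iEZH2 against DMSO, 5499 for Combo against DMSO, 2240 and 2 members for Combo against iDOT1L, 2136 and 3 members for Combo against iEZH2, and 3185 and 2 members for iDOT1L against iEZH2. For Combo, the r of libraries of the same number exceeded 0.1 in 2 of 4 pairs with DMSO, 3 with iDOT1L and 2 with iEZH2. In these comparisons the block added the calls of KITLG against iDOT1L (limma adjusted p = 0.00730) and of KIT (0.0277) and CSF1R (0.00588) against iEZH2. The block also took the adaptors called with Combo against DMSO to 19 of 31, where 24.6% of all genes were called. It changed no other call of a member than these and those named above. Each library correlated best with its own number in at most 3 of 4 pairs. With only the groups compared, 450 genes were called for iEZH2 against DMSO, 511 for Combo against iEZH2 and 1004 for iDOT1L against iEZH2, and 2 members for iDOT1L against DMSO. For iDOT1L against DMSO it was also 2 with a pseudocount of 5, a mean of at least 10 or the deposited log2 values, each time with CSF1R added, and 2 members were called for Combo against iEZH2 with a mean of at least 10. CSF1R was called with Combo against DMSO (adjusted p = 0.0262) with only those groups.

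Without 1 library, calls ranged over 915 to 1279 genes and 1 to 2 members for iDOT1L against DMSO, 409 to 1046 and 1 to 2 for iEZH2 against DMSO, 2642 to 3583 and 3 to 3 for Combo against DMSO, 199 to 567 and 1 to 1 for Combo against iDOT1L, 493 to 1349 and 0 to 3 for Combo against iEZH2, 964 to 1802 and 1 to 1 for iDOT1L against iEZH2, and 0 to 1 and 0 to 0 for the interaction. The cause was not tested.

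Signs turned in 40 of 938 values of members, none of them called. For CSF1 the iDOT1L difference from iEZH2, -0.00109, became 0.00470 with a pseudocount of 0.5, 0.00658 with one of 5, 0.00340 on the deposited values and 0.00665 after rescaling. On the deposited values the interaction was -0.11 for CSF1R and 0.0776 for KIT. Without 1 library these values ranged over -0.58 to 0.51 for CSF1 between iDOT1L and iEZH2, -0.19 to 0.90 for CSF1, -0.0861 to 0.23 for FLT3LG, -0.13 to 0.33 for PDGFRA and -0.53 to 0.29 for PDGFRB between Combo and iDOT1L, -0.19 to 0.69 for CSF1 and -0.0672 to 0.19 for KITLG between Combo and iEZH2, and -0.0386 to 0.34 for FLT3LG between iDOT1L and iEZH2. Against DMSO, iEZH2 gave -1.01 to 0.37 for PDGFRA and -0.11 to 0.68 for PDGFRB. The interaction ranged over -0.38 to 0.34 for CSF1R, -0.11 to 0.15 for FLT3, -0.49 to 0.27 for KIT, -0.28 to 1.096 for PDGFRA and -0.93 to 0.0421 for PDGFRB. Of the other values of members, 871 kept direction and side of the threshold, 17 passed it and 10 fell short of it. Some libraries of PDGFRA and CSF1 lay under the level of 3 reads, where depth limits the comparison.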
